A study of Mus musculus with 6 samples.

Results

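Notch receptors, their ligands and their target genes were followed in the mouse ureteric bud, the branching epithelium of the embryonic kidney that becomes the collecting duct, at E15.5, in cells of a conditional mutant of Dicer, the enzyme that cuts precursor hairpins into mature miRNAs. The 10 genes described are the receptors Notch1, Notch2 and Notch3, the ligands Jag1, Jag2 and Dll1, the glycosyltransferase Lfng and the target genes Hey1, Hes1 and Heyl. They were chosen by name as members of the pathway, out of 19296 genes measured, and each had 1 probe set of its own. Of the 6 arrays, 3 held Dicer mutant cells and 3 held control cells. The mutant genotype was Dicerc/-; Hoxb7Cre; Rosa26YFP, in which Cre acts on the conditional Dicer allele in the ureteric bud lineage, the other allele is null in every cell of the embryo, and YFP marks cells in which Cre was active. The controls were given as wild type on the same mixed strain background. Cells of both groups were freed with trypsin and sorted on YFP, and whether the controls carried Hoxb7Cre and Rosa26YFP is not stated, so effects of Cre and of the Dicer genotype cannot be told apart. The arrays of a group are labelled as biological replicates, and how many embryos went into each is not given.

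Notch receptors are cut at the cell surface when a Jagged or Delta ligand on a neighbouring cell binds them. The freed intracellular domain joins the DNA-binding protein Rbpj in the nucleus and switches on genes of the Hes and Hey families, which encode transcriptional repressors. In the collecting duct of the mouse, which arises from the ureteric bud, Notch signalling favours principal cells, the water- and sodium-transporting cells, over intercalated cells, which handle acid and base. In the forming nephron it takes part in the patterning of the tubule.

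Several miRNAs are known from human and mouse cells to act on transcripts of this pathway, and their sequences are shown because Dicer makes their mature forms. The miR-34 and miR-449 family is known to target Notch1 and Jag1, and the miR-200 family to target Jag1. Only some targets of these families are named. Other Notch genes described here, including ones that did not rise, may be targets too, and no transcript was searched for sites. Levels of mature miRNAs are not analysed here, and whether their loss bears on the values below was not tested. The mature sequences are from RefSeq (GRCm38.p6), 5′ to 3′, with the seed (bases 2 to 8) in capitals. The first 3 share the seed GGCAGUG, the next 3 the seed AAUACUG and the last pair the seed AACACUG.
miR-34a-5p, chr4:150068473-150068494: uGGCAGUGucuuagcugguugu
miR-34b-5p, chr9:51103610-51103632: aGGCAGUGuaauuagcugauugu
miR-449a-5p, chr13:113037549-113037570: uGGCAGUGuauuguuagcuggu
miR-200b-3p, chr4:156055685-156055706: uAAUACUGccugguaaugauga
miR-200c-3p, chr6:124718324-124718346: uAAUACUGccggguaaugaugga
miR-429-3p, chr4:156053916-156053937: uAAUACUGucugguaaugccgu
miR-141-3p, chr6:124717917-124717938: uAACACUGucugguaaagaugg
miR-200a-3p, chr4:156054911-156054932: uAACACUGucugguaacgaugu

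The expression values are on a log2 scale (RMA, a method that corrects background, brings all arrays to the same distribution of values and combines the probes of a probe set). A difference of 1 is therefore a 2-fold change, and levels of different genes are not compared because each has its own probes. Dicer1, the targeted gene, was lower on all 3 mutant arrays (9.80, 9.72 and 9.64) than on the control arrays (10.31, 10.38 and 10.25), which left 66.3% of the control signal (limma, adjusted p = 0.0005; two-sided exact permutation p = 0.1, the smallest that 3 against 3 arrays allow). Probes for exons that stay in the mutant transcript also give signal, so this percentage is not a share of cells. All 15 ureteric bud markers lay above the median of all probe sets, 7.51, with Ret, Gata3, Calb1 and Cdh1 among them. Of these 15, at an adjusted p of 0.05 in limma, 1 rose (Wnt9b, log2 fold change 1.42) and 8 fell. The 8 were Krt19 (-1.19), Wnt11 (-0.60), Hoxb7 (-0.40), Pax8 (-0.37), Ret (-0.35), Gata3 (-0.31), Krt8 (-0.25) and Calb1 (-0.24). Cdh1 was among those that did not pass (0.03). Among all genes 11.8% were higher and 13.9% lower, and 39.6% of the genes brighter than the median passed. Array medians ranged from 7.47 to 7.54, and precision is limited by there being 3 arrays a group.

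Of the 10 Notch genes, 5 rose in Dicer mutant cells, 1 fell and 4 did not pass an adjusted p of 0.05 in limma. The receptors Notch1, Notch2 and Notch3 rose by 1.20-fold to 1.33-fold, Jag1 rose 1.16-fold and Lfng fell. Of the target genes Hey1 rose 3.07-fold, and Hes1 and Heyl did not pass. Among all 19296 genes 25.8% passed, 11.8% higher and 13.9% lower, and the share was 39.6% among the genes brighter than the median, to which 8 of the 10 belong. The median log2 fold change was 0.19 over the 10 genes and -0.05 over all genes. For 6 of the 10 the arrays of the groups did not overlap, as held for 42.5% of all genes and for 6033 of the 9677 genes brighter than the median.

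**Figure D1:**
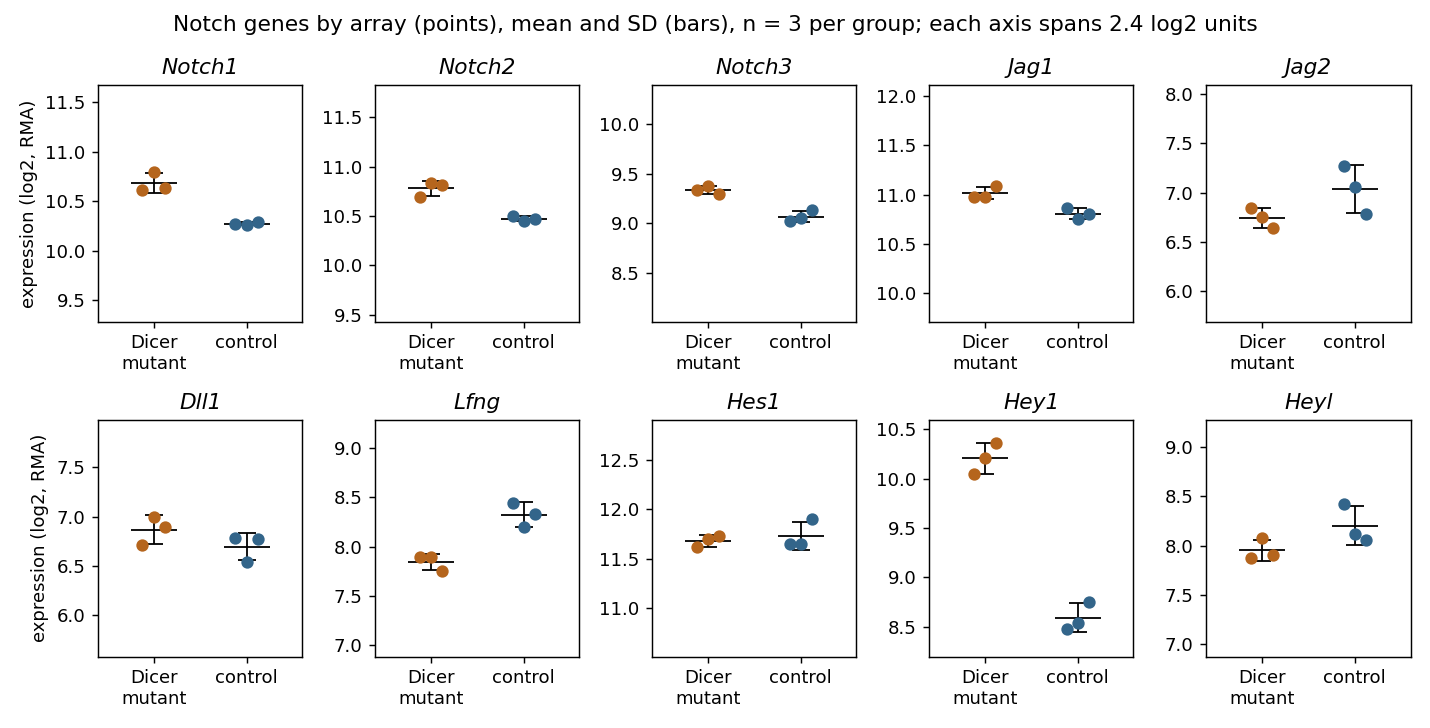
Expression of the 10 Notch genes on each array (y axis, log2 RMA value; every panel spans 2.4 log2 units), with Dicer mutant arrays on the left and control arrays on the right of each panel. Points are arrays and bars are the mean and SD (n = 3 each). Hey1 shows the widest gap, with mutant arrays at 10.05 to 10.36 and control arrays at 8.47 to 8.75, while Hes1 arrays overlap.

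The receptors were first compared. Notch1, which acts in cell fate choices of many epithelia, read 10.61, 10.80 and 10.63 on the mutant arrays and 10.27, 10.26 and 10.29 on the control arrays. All mutant arrays lay above all control arrays, which differed little from one another. The mean was 10.68 ± 0.10 in mutant and 10.27 ± 0.014 in control cells (SD, n = 3 each), and the log2 fold change was 0.41 ± 0.07 (standard error; 1.33-fold higher; limma, adjusted p = 0.00293). Notch2, the receptor needed for proximal tubule formation in the mouse nephron, read 10.69, 10.83 and 10.82 in mutant cells and 10.50, 10.45 and 10.47 in control cells. These groups did not overlap either, and Notch2 rose by 0.31 ± 0.06 (standard error) on the log2 scale (1.24-fold; limma, adjusted p = 0.00677). Notch3, best known from vascular smooth muscle and pericytes, read 9.34, 9.37 and 9.29 in mutant cells and 9.02, 9.05 and 9.13 in control cells. It rose by 0.27 ± 0.06 (standard error) on the log2 scale (1.20-fold; limma, adjusted p = 0.0106), again with no overlap. In the fits that left out 1 array, the adjusted p of Notch3 in limma was 0.0124 to 0.045.

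Because vascular and stromal cells also use these receptors, their markers were read on the same arrays. Of 10 markers of stroma, pericytes and smooth muscle, 7 did not pass and 3 fell: Rgs5 (-0.58), Acta2 (-0.72) and Myh11 (-0.33). Of these 10 markers, 8 lay below the median brightness. Their mean level per array was 6.94 to 6.95 in mutant and 7.03 to 7.26 in control cells. Of 8 endothelial markers, 1 fell (Plvap, -0.42) and 7 did not pass, all lay below the median brightness, and their mean level was 6.33 to 6.69 in mutant and 6.50 to 6.96 in control cells. In limma 0 markers of either list were higher, at the adjusted threshold and at an unadjusted p under 0.05 alike. Among all genes 11.8% were higher and 13.9% lower, and of the genes below the median brightness 11.9% passed in either direction. What part such cells have in the receptor values was not tested. In such bulk samples, fewer cells of a type and less RNA per cell cannot be told apart.

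Among the ligands, Jag1 rose slightly. Jag1, a ligand present in the duct and in forming nephrons, read 10.98, 10.98 and 11.09 in mutant cells and 10.86, 10.75 and 10.80 in control cells. The groups did not overlap, but the gap between the closest arrays was 0.11. Jag1 rose by 0.21 ± 0.06 (standard error) on the log2 scale (1.16-fold; limma, adjusted p = 0.037). That call was lost in 5 of the 6 fits that left out 1 array, with an adjusted p of 0.0801, 0.0688 and 0.12 without mutant replicates 1, 2 and 3, and of 0.107 and 0.0676 without control replicates 2 and 3.

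The other ligands were dim and did not pass. Jag2, the second Jagged ligand, read 6.84, 6.75 and 6.65 in mutant cells and 7.27, 7.06 and 6.78 in control cells. The lowest control array lay within the mutant range, and the log2 fold change of -0.29 (95% interval -0.57 to -0.02, unadjusted) had an adjusted p of 0.116 in limma. Without control replicate 3, the lowest of the controls, the log2 fold change was -0.42 and the adjusted p 0.0139. Dll1, a Delta ligand of early nephrons, read 6.71, 7.00 and 6.89 in mutant cells and 6.78, 6.54 and 6.77 in control cells. Its arrays overlapped and its log2 fold change was 0.17 (95% interval -0.05 to 0.39; limma, adjusted p = 0.237).

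Cells of the forming nephron carry Jag1, Dll1 and Lfng too, so their markers stand beside these values. Of 8 markers of nephron progenitors and early nephrons, 1 rose and 2 fell, and their mean level per array was 7.90 to 7.96 in mutant and 7.65 to 7.77 in control cells. The median log2 fold change of the 8 was -0.15, opposite in sign to the difference in mean level. The one that rose was Six2, the transcription factor that keeps nephron progenitors undifferentiated, at 10.34 ± 0.06 in mutant and 7.05 ± 0.21 in control cells (SD, n = 3 each). Wnt4, an early nephron signal, and Osr1, a factor of the early kidney mesenchyme, fell, with log2 fold changes of -0.37 and -0.67. At an unadjusted p under 0.05 in limma, 2 of the 8 were higher and 4 lower. The 2 were Six2 and Cited1 (log2 fold change 0.27, limma adjusted p = 0.0503). Of 6 podocyte and proximal tubule markers, 1 rose (Lrp2, 1.05) and 2 fell (Slc34a1, -0.69, and Hnf4a, -0.31), with mean levels of 6.94 to 7.00 in mutant and 6.73 to 7.15 in control cells. Of 5 blood and immune markers, 1 fell (Ptprc, -0.45) and 4 did not pass, with mean levels of 5.85 to 5.91 in mutant and 5.87 to 6.13 in control cells. Beside the counts of these lists, 11.8% of all genes were higher and 13.9% lower. What part such cells have in the ligand and Lfng values was not tested. The same holds for the target genes Hey1, Hes1 and Heyl, and there also for the vascular and stromal cells.

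Lfng was the member that fell. It encodes Lunatic fringe, a Golgi enzyme that adds sugars to Notch receptors and so shifts their response between Delta and Jagged ligands. It read 7.89, 7.89 and 7.75 on the mutant arrays and 8.45, 8.20 and 8.33 on the control arrays, with no overlap. The mean was 7.85 ± 0.08 in mutant and 8.33 ± 0.12 in control cells (SD, n = 3 each), and the log2 fold change was -0.48 ± 0.08 (standard error; 1.39-fold lower; limma, adjusted p = 0.00319). Of the related fringe genes, Rfng fell too, by 0.44 on the log2 scale, and Mfng did not pass, at 0.03.

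Of the 3 target genes, 1 passed the test. Hey1, a repressor of the Hairy and Enhancer of split family and a direct Notch target in many tissues, read 10.05, 10.21 and 10.36 in mutant cells and 8.47, 8.54 and 8.75 in control cells. The lowest mutant array lay 1.29 log2 units above the highest control array. The mean was 10.20 ± 0.16 in mutant and 8.59 ± 0.15 in control cells (SD, n = 3 each), and the log2 fold change was 1.62 ± 0.10 (standard error; 3.07-fold higher; limma, adjusted p = 5.19e-05). Ordered from the largest rise downwards, Hey1 ranked 37 of 19296 genes. Hes1, the repressor most widely induced by Notch, read 11.62, 11.70 and 11.73 in mutant cells and 11.65, 11.65 and 11.90 in control cells. It was bright in both groups, and 2 of the control arrays lay within the mutant range, with a log2 fold change of -0.05 (95% interval -0.24 to 0.14; limma, adjusted p = 0.684). Heyl, a relative of Hey1 known from vascular smooth muscle, read 7.88, 8.07 and 7.90 in mutant cells and 8.42, 8.12 and 8.05 in control cells. These values overlapped narrowly, and the log2 fold change of -0.25 (95% interval -0.49 to -0.01, unadjusted) had an adjusted p of 0.124 in limma.

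**Figure D2:**
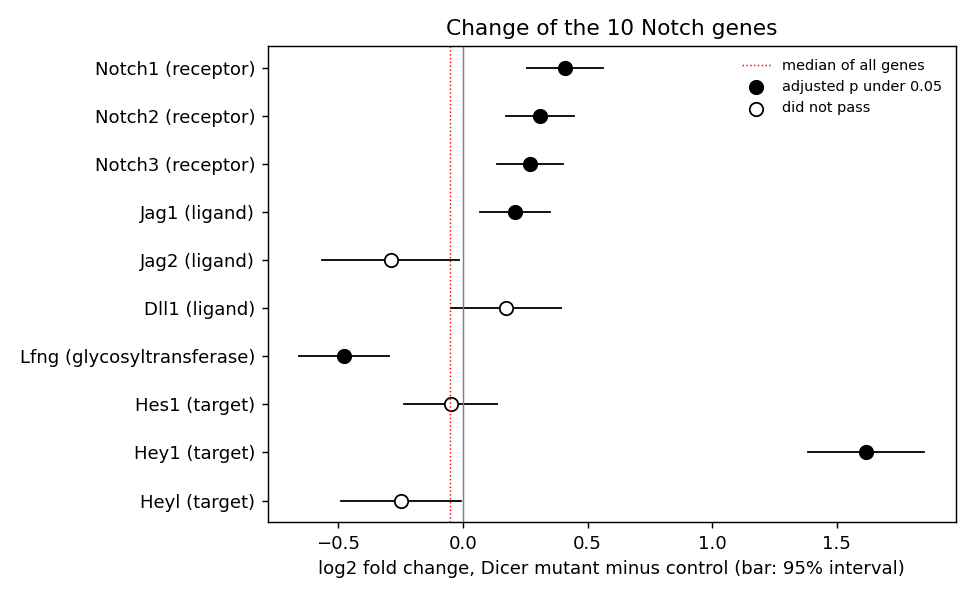
Log2 fold change of the 10 Notch genes (x axis, Dicer mutant minus control; points, with 95% intervals as bars; y axis, gene and role). Filled points passed an adjusted p of 0.05 and the dotted line is the median of all genes, -0.05. Hey1 stands at 1.62, the 3 receptors at 0.27 to 0.41 and Lfng at -0.48.

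Members of 1 role were set against each other by the ratio of 2 genes within each array, over the 9 pairs within receptors, ligands and targets. Hey1 over Hes1 was higher in mutant than in control cells on every array, by 1.67 log2 units (SD of the ratio 0.10 in mutant and 0.035 in control cells, n = 3 each), and Hey1 over Heyl by 1.87 (SD 0.18 in mutant and 0.33 in control cells). Jag1 over Jag2 was higher by 0.50 and Notch1 over Notch3 by 0.14, also without overlap of the arrays. For each of these 4 pairs the two-sided exact permutation test gave p = 0.1, the smallest that 3 against 3 arrays allow, and the adjusted p over the 9 pairs was 0.225. The other pairs overlapped: Notch1 over Notch2, Notch2 over Notch3, Jag1 over Dll1, Jag2 over Dll1 and Hes1 over Heyl changed by 0.10, 0.04, 0.04, -0.46 and 0.20, with an exact permutation p of 0.2 to 0.8. Since 0.1 is the floor of this permutation test, it cannot tell unequal from equal change at 0.05, and the ratios are given as a description.

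**Figure D3:**
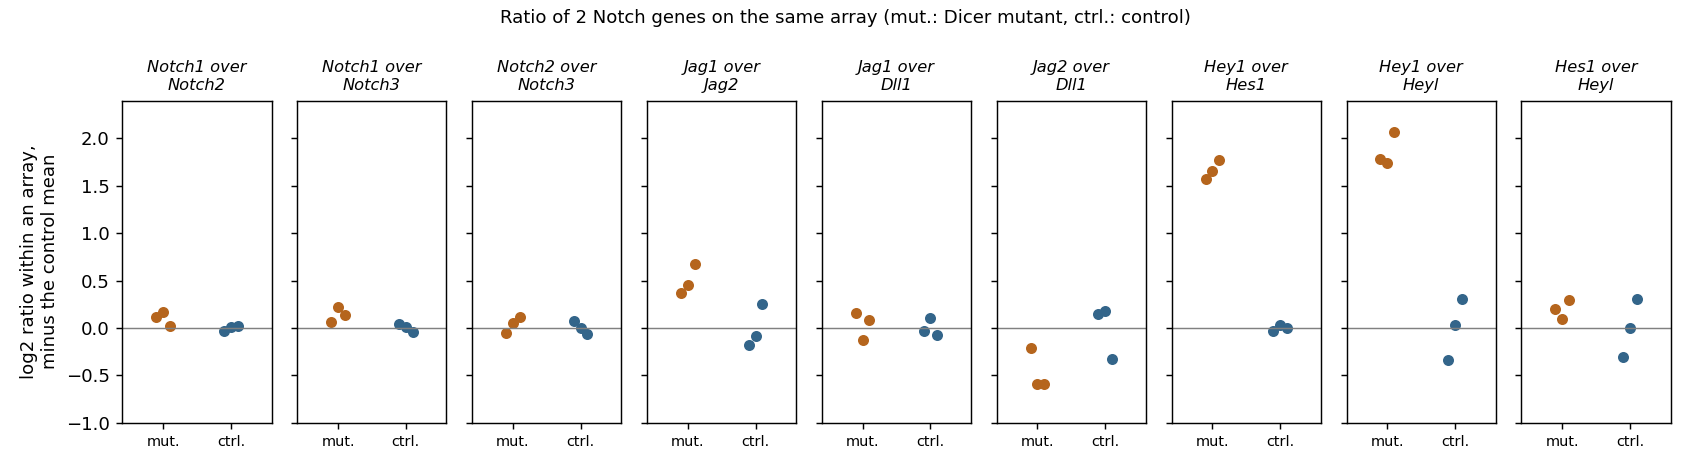
Log2 ratio of 2 Notch genes on the same array (y axis, minus the mean of the control arrays) for the 9 pairs within a role, with Dicer mutant arrays on the left and control arrays on the right of each panel; points are arrays. Hey1 over Hes1 and Hey1 over Heyl stand apart between the groups by 1.67 and 1.87 log2 units, and the receptor pairs differ by 0.04 to 0.14.

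The genes whose profile was most like that of Hey1 were Polr3g, Lin28b and Adgre5. Likeness was the root-mean-square difference over the 6 arrays after each gene was centred on its own mean, and it was 0.06, 0.07 and 0.09 log2 units. The log2 fold changes of the 3 genes were 1.64, 1.62 and 1.55, against 1.62 for Hey1. With so wide a difference between the groups, the measure mainly picks genes with a change of like size. Polr3g, a subunit of RNA polymerase III, had 9.23 ± 0.08 in mutant and 7.59 ± 0.15 in control cells (SD, n = 3 each). Lin28b, which binds let-7 precursors and keeps them from maturing, had 8.44 ± 0.09 and Adgre5, an adhesion receptor of the G protein-coupled class, had 9.23 ± 0.11 in mutant cells, against 6.82 ± 0.16 and 7.69 ± 0.12 in control cells.

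The steps of the pathway around these genes were covered by 7 further lists of 64 genes, of which 60 were measured. In these lists 9 genes rose, 9 fell and 42 did not pass, with a median log2 fold change of -0.03 against -0.05 over all genes. The share that passed, 30%, lay near that of all genes, 25.8%, and below the 39.6% of bright genes, although 46 of the 60 were bright.

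The list of receptor cleavage held 6 calls, more than each of the other 6 pathway lists. Of 7 measured genes, all of them bright, 4 rose, 2 fell and 1 did not pass. Adam10, the surface protease that makes the first ligand-dependent cut, rose and read 10.98, 11.01 and 11.05 in mutant cells and 10.50, 10.71 and 10.70 in control cells (log2 fold change 0.38; limma, adjusted p = 0.00595). Adam17, a protease that can cut Notch at the same place, had a log2 fold change of 0.23 (limma, adjusted p = 0.0171). The subunits of γ-secretase, which releases the intracellular domain, moved both ways. Ncstn and Aph1b rose by 0.21 and 0.29, Aph1a and Psenen fell by 0.27 and 0.19 on the log2 scale, and Psen2 did not pass (-0.12).

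Of 6 genes that modify or fold the receptors, 1 rose and 1 fell. Eogt, which adds N-acetylglucosamine to EGF repeats, had 8.93 ± 0.12 in mutant and 8.37 ± 0.04 in control cells (SD, n = 3 each; log2 fold change 0.57; limma, adjusted p = 0.00105). Rfng had 7.43 ± 0.04 in mutant and 7.86 ± 0.04 in control cells (SD, n = 3 each; limma, adjusted p = 0.00103). Of 6 genes that act in the ligand-bearing cell, 1 fell and 5 did not pass. The one that fell was Epn1, an endocytic adaptor (log2 fold change -0.40; limma, adjusted p = 0.00636). Mib1, the ubiquitin ligase that activates ligands in the ureteric bud of the mouse, did not pass (0.09). Among 6 other ligands and receptors 1 fell, Dlk2 (-0.29; limma, adjusted p = 0.0292), and 5 did not pass. Those 5 included Notch4 (-0.04) and Dll4 (-0.22), both typical of endothelium.

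Of 10 genes for receptor sorting and turnover 2 rose, the adaptor Numbl (log2 fold change 0.33) and Fbxw7 (0.20), which marks the intracellular domain for degradation. Of 13 measured genes of the nuclear complex and its corepressors 2 rose, the acetyltransferase Kat2b (0.35) and the corepressor Tle4 (0.31). Rbpj itself had 10.39 ± 0.04 in mutant and 10.34 ± 0.05 in control cells (SD, n = 3 each), and with Maml1 (-0.04) did not pass. Of 12 measured further Hes and Hey genes and genes that Notch can induce, 4 fell and 8 did not pass. Those that fell were Id1 (-0.61), Gata2 (-0.39), Id3 (-0.29) and Hes6 (-0.28). The Id genes encode inhibitors of helix-loop-helix factors and are best known as BMP targets, and Hes6 counteracts Hes1. Hes5 (-0.25), Hey2 (0.10) and Nrarp (0.16), a feedback inhibitor induced by Notch, did not pass.

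**Figure D4:**
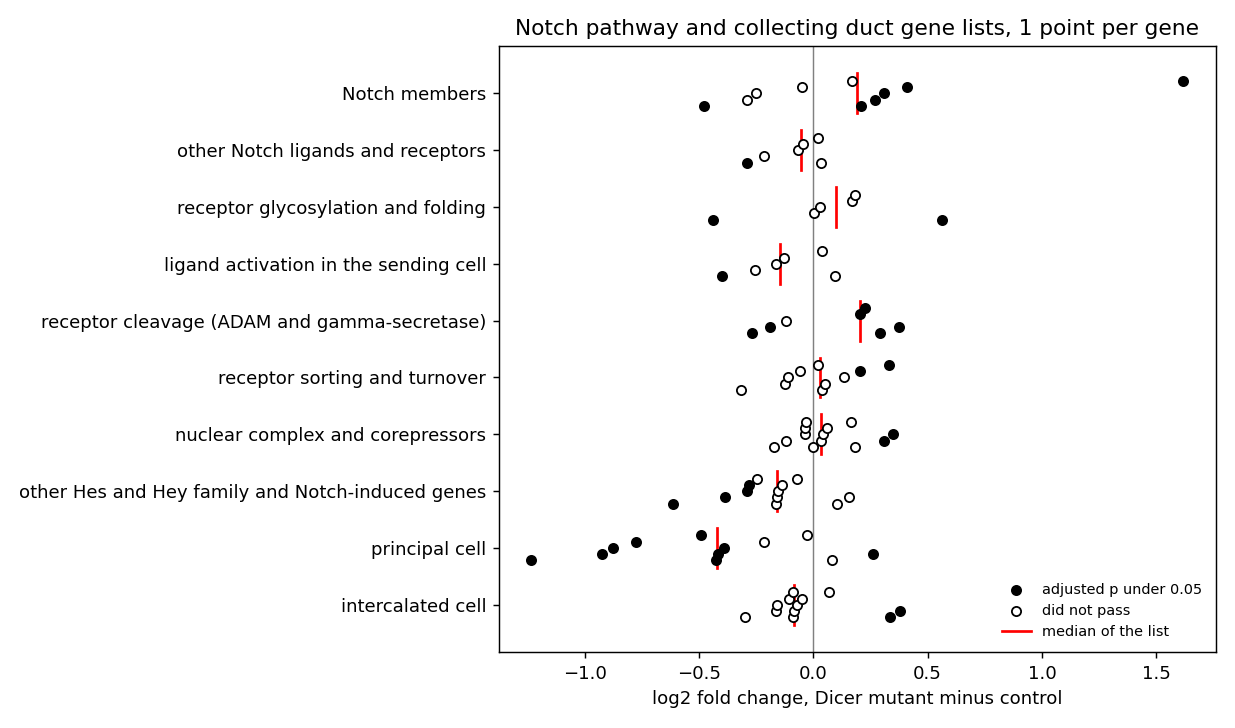
Log2 fold change (x axis, Dicer mutant minus control) of every measured gene of the Notch pathway lists and of the principal and intercalated cell lists (y axis), 1 point per gene; filled points passed an adjusted p of 0.05 and red lines are list medians. Hey1 lies furthest to the right at 1.62, and 8 of 12 principal cell genes are filled on the left.

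The cell types on which Notch bears in the collecting duct were read as 2 lists. Of 12 principal cell genes 8 fell, 1 rose and 3 did not pass, with a median log2 fold change of -0.42. Among all genes 11.8% were higher and 13.9% lower, and 8 of the 15 ureteric bud markers fell as well. Of the 12 principal cell genes, 6 lay below the median brightness. Aqp2 was among those that did not pass (log2 fold change -0.21, limma adjusted p = 0.174). Elf5, a transcription factor of principal cells that depends on Notch in the mouse collecting duct, read 7.66, 7.67 and 7.66 in mutant cells and 8.67, 8.60 and 8.35 in control cells (log2 fold change -0.88; limma, adjusted p = 0.000326). Avpr2, the receptor for vasopressin, Aqp3, a channel for water and glycerol, and Scnn1b, of the epithelial sodium channel, also fell (-1.23, -0.77 and -0.49), while Tfcp2l1, a factor of the duct epithelium, rose (0.26). Of 12 intercalated cell genes 2 rose, the receptor Kit (0.38) and the ammonia channel Rhcg (0.33), and 10 did not pass. Foxi1, the transcription factor that defines intercalated cells, had 7.02 ± 0.02 in mutant and 7.10 ± 0.20 in control cells (SD, n = 3 each) and was among the 9 of the 12 that lay below the median brightness.

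Promoters were examined for 7 of the 10 genes (not for Hes1, Hey1 and Heyl), with 8 windows in the RefSeq table (GRCm38.p6), each from 250 bases before to 50 after a start site. All 8 were richer in CpG than the median of 32851 windows: the ratio of observed to expected CpG was 0.64 to 1.14, against 0.38 at the median. Their GC content was 55.7% to 86%, against a median of 52.7%. The Rbpj core TGGGAA, or its reverse complement TTCCCA, was searched on both strands. It stood in 1 of the 8 windows, that of Lfng, and in 25.6% of all windows (21.3% of the 13607 windows at least as GC-rich as the lowest of the 8). The Lfng window held it 2 times, 135 and 108 bases before the start site, and the second copy, part of GTGGGAA (6.38% of all windows), overlaps an E box of letters CACGTG (7.15% of all windows). Repressors of the Hes type can bind CACGCG. With its reverse complement, CGCGTG, it stood in 5 of the 8 windows, in 9.27% of all windows and in 19.2% of the GC-rich ones. CACGCG itself contains CpG, and the GC-rich windows were not matched to the 8 in GC content or CpG ratio. These shares are therefore no test of enrichment. A further site of Hes proteins, CACNAG or CTNGTG, stood in 5 of the 8 windows and in 42.5% of all windows. CACGCG or its complement stood in the windows of Jag1 and Notch2, which rose, and of Lfng, which fell. It also stood in the window of Jag2 and in 1 of the 2 windows of Dll1, genes that did not pass. It was not found in the windows of Notch1 and Notch3, which rose. A match of letters is a description and shows no binding. The windows of Lfng, which fell, and of Jag1 and Notch2, which rose, are shown 5′ to 3′ on the strand of the gene, with TGGGAA or TTCCCA in capitals for Lfng and CACGCG or CGCGTG in capitals for the other windows (the copy of CGCGTG in the Lfng window is in lower case).
Lfng promoter, chr5:140607091-140607390, plus strand: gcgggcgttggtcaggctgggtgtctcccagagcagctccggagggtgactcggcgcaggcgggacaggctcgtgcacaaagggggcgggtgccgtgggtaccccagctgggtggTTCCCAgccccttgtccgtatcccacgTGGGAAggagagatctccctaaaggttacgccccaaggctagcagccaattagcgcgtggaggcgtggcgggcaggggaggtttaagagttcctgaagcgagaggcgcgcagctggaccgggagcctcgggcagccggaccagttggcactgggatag
Jag1 promoter, chr2:137116471-137116770, minus strand: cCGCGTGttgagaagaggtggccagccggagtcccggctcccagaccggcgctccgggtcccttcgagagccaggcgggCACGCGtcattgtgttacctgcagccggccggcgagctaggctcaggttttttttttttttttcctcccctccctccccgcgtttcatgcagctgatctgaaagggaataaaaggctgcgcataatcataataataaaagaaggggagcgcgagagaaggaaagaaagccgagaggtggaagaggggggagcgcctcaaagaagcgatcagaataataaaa
Notch2 promoter, chr3:98013288-98013587, plus strand: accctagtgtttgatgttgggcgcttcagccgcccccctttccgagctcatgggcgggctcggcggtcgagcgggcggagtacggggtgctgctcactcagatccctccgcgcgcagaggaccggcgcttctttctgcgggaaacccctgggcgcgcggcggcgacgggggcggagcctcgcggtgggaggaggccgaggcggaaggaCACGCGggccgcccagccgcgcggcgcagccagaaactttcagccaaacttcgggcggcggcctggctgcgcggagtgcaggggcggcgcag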

How the data were processed

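Total RNA of sorted cells was hybridised to Affymetrix arrays, 3 Dicer mutant and 3 control. The values deposited by the authors are on the log2 scale, with a value for each probe set on each array; the submitters' processing notes name RMA and the affy package (versions, build and filters: not given in the sources used here), which correct background and equalise the arrays. Shifts common to most transcripts are thereby removed, and changes of dim genes compressed. No batch, slide or date was used. No 2 arrays shared more than 22 of 23309 values.

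Of the probe sets, 20728 had 1 gene symbol, 1174 several and 1407 none listed; the brightest probe set per single symbol gave 19296 genes, with no filter on low values, so all 10 Notch genes were tested. limma 3.58.1 (R 4.3.3; lmFit, eBayes, 3.93 prior degrees of freedom) fitted genotype to all genes, two-sided, with Benjamini-Hochberg adjustment over all of them and a threshold of 0.05. The fit was also run on simulated data with independent noise and far fewer changed genes than here. Its outcome is not reported and no result rests on it. Bright means a mean over the 6 arrays above 7.51, and no detection call was used.

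Members and lists were chosen with earlier results of these data known. Named were the 10 genes, Dicer1, from each list up to 4 genes past the threshold by smallest p, and the 3 genes most like Hey1. Named after their values were seen were Mfng, Ncstn, Psenen, Psen2, Mib1, Notch4, Dll4, Rbpj, Maml1, Hes5, Hey2, Nrarp, Aqp2, Tfcp2l1, Foxi1 and Cited1. Ureteric bud markers named in the same way were Ret, Gata3, Calb1, Cdh1, Krt8 and Krt19. Some genes of the lists are not reported here. Results were recomputed with a replicate block, without each array, with quantile normalization or median centring, without dim genes, with probe sets averaged, with a variance trend and robust eBayes, with array weights and at a threshold of 0.01.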

Additional observations from a re-analysis of the deposited data

How the results depend on the processing

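Of 128 refits of single Notch genes, 118 kept direction and side of the threshold, 8 lost the call, 1 gained it and 1 turned. Hes1, between -0.091 and 0.032 in the fits without 1 array, turned to 0.032 (adjusted p = 0.741) without control replicate 3, and Jag2 passed without that array. Jag1 lost its call in 5 fits without 1 array, with the replicate block (adjusted p = 0.0938) and at a threshold of 0.01. Notch3 lost its call at 0.01 (adjusted p = 0.0106) and stayed just under 0.05 with the replicate block (limma, adjusted p = 0.0475). Notch1, Notch2, Lfng and Hey1 kept their calls in the 13 alternatives that could alter their values or call, with Hey1 between 1.54 and 1.70. The count of Notch genes past the threshold ranged from 5 to 6 without 1 array, and that of all genes from 3460 to 5130. Without mutant replicate 1 the genes that were lower numbered 1764, against 2690 with it. At a threshold of 0.01 the counts were 4 Notch genes and 2790 genes in all. Centring arrays on their medians gave 2696 higher and 2241 lower genes, against 2285 and 2690, with the same 6 Notch genes called. Deviations of same-numbered mutant and control arrays from their group means had r of -0.19, -0.10 and -0.22 across genes. For arrays with different numbers r was -0.01 to 0.18. With 3 arrays a group, the deviations within a group depend on each other, so these values cannot decide whether samples were paired. The labels give only a replicate number. With the replicate block 3603 genes and 5 Notch genes passed. Leaving out dim genes dropped Jag2 and Dll1. Each Notch gene had a single probe set, so averaging or exchanging probe sets could not alter its values and is not counted here. The Dicer1 log2 fold change was -0.63 to -0.56 in the fits without 1 array. Signal over background was not given, which limits statements on dim genes.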
